A study of Mus musculus with 4 samples.

Results

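The 10 genes described here carry the core of the Notch pathway: the receptors Notch1, Notch2, Notch3 and Notch4, the ligands Jag1 and Dll1, and the target genes Hes1, Hey1, Hey2 and Heyl. They were taken as every probe set whose platform symbol is 1 of these names, which gave 19 of the 45037 probe sets fitted and 10 of 18193 genes. RNA was compared between mouse embryonic fibroblasts (MEFs) without Pf1 (genotype Pf1 -/-, lines 7706-2 and 7706-4) and wild-type fibroblasts (genotype Pf+/+, lines 7706-5 and 7706-6). Pf1 is a PHD finger protein encoded by Phf12. The fibroblasts were grown from embryo torsos of day 13.5 or 14.5, freed of head and red organs, cultured in 6% oxygen and harvested at passage 2 to 3. Each line was hybridised to 1 Affymetrix array, so n = 2 lines per genotype. The labels give no strain, do not say which line was of which day or passage, and leave unsaid whether each line had an embryo of its own. The p-values therefore measure the spread between these lines, which may be in part technical.

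Notch receptors are membrane proteins that are cleaved when a ligand on a neighbouring cell binds them. The freed intracellular part enters the nucleus, joins the DNA-binding protein Rbpj and a Mastermind coactivator, and switches on genes such as those of the Hes and Hey families, which encode basic helix-loop-helix repressors. Without the receptor fragment, Rbpj recruits corepressors, and Hes proteins themselves repress through Groucho/TLE proteins. Pf1 is known as a bridge between TLE proteins and the Sin3 histone deacetylase complex. In mesenchyme, Notch3 is best known from pericytes and vascular smooth muscle, where Jag1 on a neighbouring cell is a ligand for it.

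Among the 10 genes, Notch3 fell and Jag1 rose in the knockout lines, and the other 8 did not pass the test. Notch3 was 2.02-fold lower and Jag1 1.92-fold higher. A gene or probe set is called here when its limma p-value, adjusted by Benjamini-Hochberg over all genes (or over all probe sets), lies under 0.05. Over the whole array, 12.2% of genes were called, 5.21% higher and 6.95% lower in the knockout, so 1 called higher and 1 called lower among 10 is not set apart from that background by count. The median difference of the 10 genes was -0.049 on the log2 scale, against -0.0027 over all genes, and their median absolute difference was 0.19 against 0.15. All differences below are knockout minus wild type in log2 units.

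The deposited values had been centred, so that each probe set has a median of 0 across arrays. They show how the lines differ and hold no signal level. Whether a transcript was above background, and whether 1 receptor was more abundant than another, is therefore not known from these data. In bulk RNA of this kind, fewer cells that express a gene and less RNA per cell cannot be told apart.

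Sequences before the transcription start are shown for Notch3 and Jag1, because these are the 2 members that were called, and for Hey2, the only one of the 4 target genes with an entry. RefSeq promoter entries of build GRCm38.p6 were matched for 7 of the 10 genes. Each run holds the 250 bases upstream of the annotated start, 5′ to 3′ on the gene's strand. Capitals mark TGGGAA, the core of the Rbpj site (in its longer forms CGTGGGAA and TGTGGGAA, which contain it), and CACGCG or CACGTG, letters known as Hes and Hey binding motifs, on either strand.
Notch3, chr17:32166891-32167140, minus strand: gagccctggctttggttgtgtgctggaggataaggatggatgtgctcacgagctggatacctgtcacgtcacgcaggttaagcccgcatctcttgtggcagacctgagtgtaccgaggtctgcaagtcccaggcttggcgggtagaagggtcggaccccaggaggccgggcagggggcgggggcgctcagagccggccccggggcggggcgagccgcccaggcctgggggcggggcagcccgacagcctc
Jag1, chr2:137116521-137116770, minus strand: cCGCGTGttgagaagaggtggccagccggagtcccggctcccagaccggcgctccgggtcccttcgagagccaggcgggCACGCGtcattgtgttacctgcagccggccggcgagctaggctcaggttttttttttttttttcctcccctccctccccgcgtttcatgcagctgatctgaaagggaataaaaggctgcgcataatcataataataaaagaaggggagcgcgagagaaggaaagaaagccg
Hey2, chr10:30842784-30843033, minus strand: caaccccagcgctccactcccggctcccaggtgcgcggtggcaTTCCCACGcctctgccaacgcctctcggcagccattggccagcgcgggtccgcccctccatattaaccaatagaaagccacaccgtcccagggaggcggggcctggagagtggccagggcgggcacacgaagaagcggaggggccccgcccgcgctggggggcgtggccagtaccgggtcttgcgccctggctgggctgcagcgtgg
The Notch3 window held none of the 5 motifs. The Jag1 window held CACGCG at 2 places, 249 to 244 bases and 171 to 166 bases before the start. The same motif lay in windows of Notch2 (42 to 37 bases before the start) and Dll1 (68 to 63 bases), members that were not called. It is thus not particular to the member that rose. CACGCG occurred in 7.62% of 32851 promoter windows of the same length and CACGTG in 6.02%. The Hey2 window held CGTGGGAA on the opposite strand, 207 to 200 bases before the start. That longer form was present in 0.636% of windows, TGTGGGAA in 1.46% and the core TGGGAA in 21.6%. These matches describe letters in a window, and binding was not measured here.

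Phf12 was examined as a check of the genotype labels. Its probe set 1434922_at was lower in both knockout lines (-0.86 ± 0.11 SE, limma adjusted p = 0.0213), whereas 1453579_at showed 0.012 ± 0.098 SE (limma adjusted p = 0.965). The labels do not say which exons were deleted, so either probe set may lie outside them and check nothing. Centred values cannot show that fibroblast markers are present. Of 10 such markers, 5 fell and 0 rose, with line medians of -0.65 and -0.30 in the knockout against 0.61 and 0.30 in the wild type. All 10 differences lay below 0. The largest were those of Lum (-3.33, limma adjusted p = 0.0325) and Pdgfra (-2.17, limma adjusted p = 0.0375), and the smallest was that of Twist1 (-0.068). Of 9 macrophage markers, limma called 0 (0 at an unadjusted p under 0.05), but wild-type line 6 stood apart with a list median of -1.37, against -0.29, 0.56 and 0.40 in lines 2, 4 and 5. The fits without 1 line given below include those without line 6. Of 14 endothelial markers, 1 rose (Emcn, endomucin) and 2 fell (Tek, the angiopoietin receptor, and Egfl7). Of the uncalled endothelial markers, Flt1 (-0.53, limma adjusted p = 0.116) and Esam (0.52, limma adjusted p = 0.0586) differed most, in opposite directions. Cdh5, the endothelial cadherin, differed by -0.0083 and Pecam1 by -0.15, neither called. Of 9 epithelial markers, 2 rose (Krt8, at 2.42 with limma adjusted p = 0.0132, and Cldn4, at 1.66 with limma adjusted p = 0.0319), 1 fell (Krt19, -0.39) and 6 did not pass. The largest difference of these 6 was that of Krt18 (1.60 ± 0.40 SE, limma adjusted p = 0.0659). Krt5 (0.23), Cdh1 (0.22), Krt14 (0.15), Epcam (-0.13) and Esrp1 (-0.16) were the others. Line medians of this list were 0.071, 0.16, -0.077 and -0.071 in lines 2, 4, 5 and 6. Of 7 measured neural progenitor and glial markers, Fabp7 rose (3.31, limma adjusted p = 0.0140), Slc1a3 fell (-0.73) and 5 did not pass. These 5 were Nes (0.95 ± 0.23 SE, limma adjusted p = 0.0614), Sox2 (0.22), Sox10 (0.061), Gfap (0.0088) and Pax6 (-0.074). Of 8 skeletal muscle progenitor markers, Des rose (0.62) and 7 did not pass. The part of these marker changes in the results on the Notch genes was not tested.

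Notch3 was the member with the largest difference. Its mean over both probe sets stood at -0.57 in knockout line 2, -0.47 in knockout line 4, 0.50 in wild-type line 5 and 0.49 in wild-type line 6. The knockout lines lay 0.96 below the nearest wild-type line, while lines of 1 genotype were 0.10 (knockout) and 0.01 (wild type) apart. The difference was -1.02 ± 0.085 SE (limma adjusted p = 0.0124), with a 95% interval of -1.23 to -0.80. It ranked 346 from the bottom among the 18193 genes. In fits without 1 of the lines, with 1 residual degree of freedom, the difference stayed between -1.07 and -0.97. The call held without knockout line 4 (adjusted p = 0.0452) and was lost without each of the other lines (limma adjusted p = 0.0527 to 0.0887, of which 0.0527 was without line 6).

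The size of the Notch3 change depended on the probe set. Probe set 1421965_s_at stood at -0.83 and -0.72 in the knockout lines and at 0.72 and 0.77 in the wild-type lines, a 2.87-fold decrease (-1.52 ± 0.098 SE, limma adjusted p = 0.0102). The other, 1421964_at, stood at -0.31 and -0.22 against 0.29 and 0.22, a 1.43-fold decrease (-0.51 ± 0.096 SE, limma adjusted p = 0.0409). Both were lower in every knockout line than in either wild-type line, and both were designed from the same transcript record. The 95% intervals of their differences, -1.77 to -1.27 and -0.76 to -0.27, did not overlap. The suffix _s_at marks a probe set that Affymetrix lists as matching more than 1 transcript. Without such probe sets, Notch3 rested on 1421964_at alone, at -0.51 (limma adjusted p = 0.0298).

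The other receptors did not pass the test as gene means. Notch1, the receptor that the embryo needs most widely, stood at -0.054, 0.013, -0.064 and 0.14 in lines 2, 4, 5 and 6, so the genotypes overlapped. Its difference was -0.059 ± 0.10 SE (95% interval -0.32 to 0.21), and its probe sets gave -0.013 and -0.10. Notch2, a close relative that is widely expressed in mesenchyme, stood at 0.034, -0.12, 0.089 and 0.00050, again with overlap. Its difference was -0.089 ± 0.097 SE (95% interval -0.34 to 0.16), from probe sets at -0.026 and -0.15. The intervals of both genes leave out a difference of the size seen in the mean of Notch3. They cover the spread between lines only, and not how well a probe set reports its transcript.

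Notch4, a receptor known from endothelium, had 3 probe sets that disagreed. Its mean stood at 0.092 and 0.10 in the knockout lines and -0.0087 and -0.23 in the wild-type lines, without overlap, but missed the threshold (0.22 ± 0.11 SE, limma adjusted p = 0.255). Over all genes, 58.2% did not overlap between the genotypes. Probe set 1449146_at rose 1.68-fold, from -0.32 and -0.40 in the wild-type lines to 0.32 and 0.45 in the knockout lines (0.75 ± 0.10 SE, limma adjusted p = 0.0231). In contrast, 1436901_at overlapped (0.067 ± 0.21 SE, limma adjusted p = 0.899), and 1456263_at lay slightly lower in both knockout lines (-0.16 ± 0.092 SE, limma adjusted p = 0.352). Line by line, 1449146_at minus 1456263_at was 0.45 and 0.51 in the knockout and -0.39 and -0.47 in the wild type. Because each probe set is centred on its own median, these values restate the unequal differences. They are not 4 separate observations of the disagreement. The 3 probe sets were designed from different sequence records. That of 1449146_at is a RefSeq transcript record, and those of 1436901_at and 1456263_at are not. Which of the 3 reports the Notch4 messenger RNA was not tested.

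**Figure D1:**
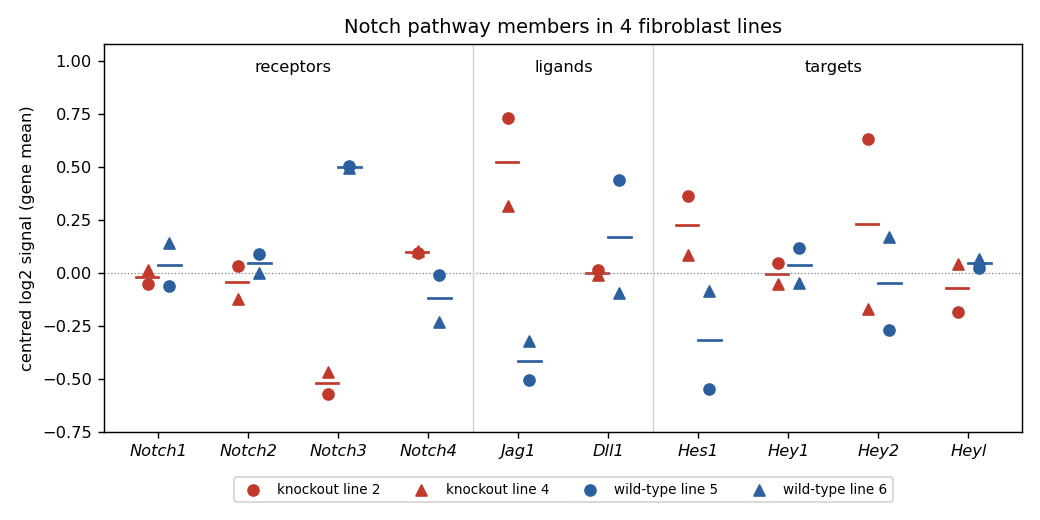
Centred log2 signal of each member (y axis, mean of the gene's probe sets, each centred on its own median over the arrays) in the 4 fibroblast lines; points are lines, short bars the mean of 2 lines. Notch3 is at -0.57 and -0.47 in the knockout lines and near 0.50 in the wild-type lines, Jag1 shows the opposite order, and most other members overlap.

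Jag1, the Jagged-type ligand, rose. Its mean over 3 probe sets stood at 0.73 in knockout line 2, 0.32 in knockout line 4, -0.51 in wild-type line 5 and -0.32 in wild-type line 6. The knockout lines were 0.41 apart, more than the 0.18 between the wild-type lines, and the gap between the genotypes was 0.64. The difference was 0.94 ± 0.16 SE (95% interval 0.52 to 1.35, limma adjusted p = 0.0315), and the gene ranked 205 from the top among all genes. Leaving out 1 line moved it between 0.73 (without knockout line 2) and 1.14 (without knockout line 4), and the call was lost in each case (limma adjusted p = 0.0502 to 0.145).

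All 3 Jag1 probe sets were higher in both knockout lines. Probe set 1421106_at gave 1.17 ± 0.20 SE (2.26-fold, limma adjusted p = 0.0333), from 0.86 and 0.39 in the knockout against -0.71 and -0.39 in the wild type. Probe set 1434070_at gave 1.09 ± 0.18 SE (2.13-fold, limma adjusted p = 0.0320), from 0.81 and 0.38 against -0.62 and -0.38. The smallest difference was that of 1421105_at, 0.55 ± 0.14 SE (limma adjusted p = 0.0765), which was not called. Knockout line 2 was the highest line on every one of the 3. Of the 19 member probe sets, 3 were called higher (2 of Jag1 and 1 of Notch4) and 2 lower (both of Notch3), against backgrounds of 3.92% higher and 4.4% lower over all probe sets.

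The Delta-type ligand Dll1 had 1 probe set and was not called. It stood at 0.011 and -0.011 in the knockout lines, 0.44 in wild-type line 5 and -0.094 in wild-type line 6. The wild-type lines lay 0.53 apart and on both sides of the knockout lines. The difference was -0.17 ± 0.18 SE (95% interval -0.65 to 0.30, limma adjusted p = 0.616), and its sign turned without wild-type line 5 (0.094).

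**Figure D2:**
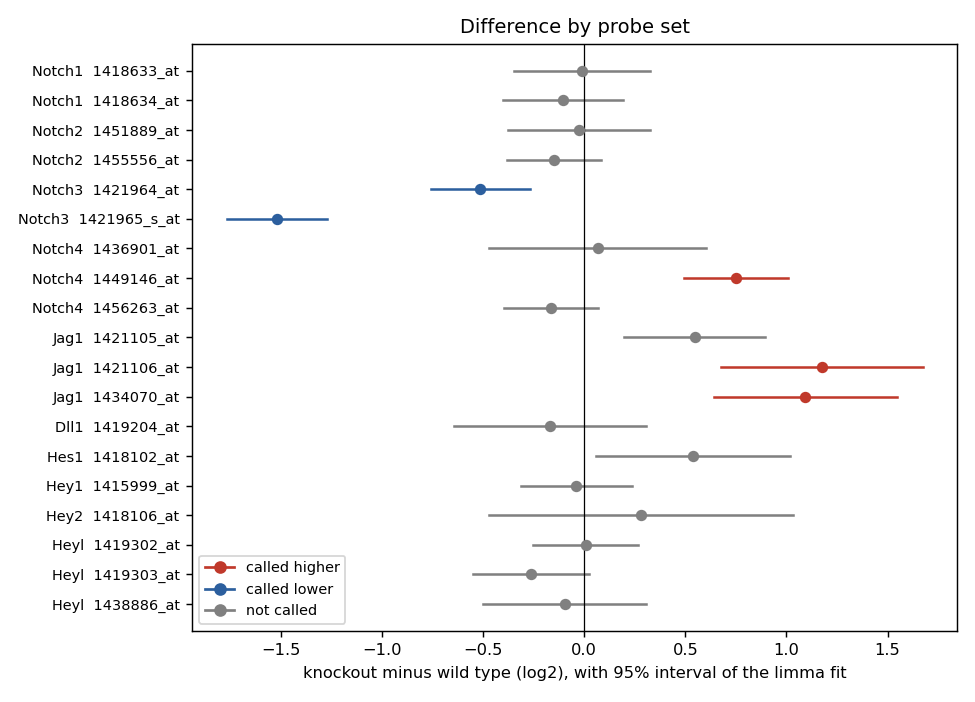
Knockout minus wild-type difference (x axis, log2) of each of the 19 member probe sets, with points for the fitted difference and bars for its 95% interval in limma; red is called higher, blue called lower, grey not called. The probe sets of Notch3 differ in size (-1.52 and -0.51), those of Jag1 all lie above 0, and 1 of 3 for Notch4 stands apart at 0.75.

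None of the 4 target genes was called (limma, 1 at an unadjusted p under 0.05, a level that 29.5% of all genes reached). Hes1, the repressor that most cell types switch on after Notch cleavage, had values of 0.36 in knockout line 2, 0.085 in knockout line 4, -0.55 in wild-type line 5 and -0.085 in wild-type line 6. The genotypes did not overlap, but line 5 lay 0.46 below line 6, and the gap between the genotypes was only 0.17. Its difference of 0.54 ± 0.19 SE missed the adjusted threshold (95% interval 0.061 to 1.02, limma adjusted p = 0.133). It ranged from 0.31 to 0.77 with 1 line left out.

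The Hey genes, hairy-related repressors with roles in vessels and heart, overlapped between the genotypes. Hey1 stood at 0.046, -0.053, 0.12 and -0.046 in lines 2, 4, 5 and 6, a difference of -0.039 ± 0.099 SE (95% interval -0.29 to 0.21). Hey2 varied most within a genotype: 0.63 in knockout line 2 and -0.17 in knockout line 4, against -0.27 and 0.17 in the wild-type lines. Its difference of 0.28 ± 0.30 SE (limma adjusted p = 0.612) rested on knockout line 2 and was -0.12 without it. The 95% interval of Hey2, -0.48 to 1.04, leaves room for changes as large as those of Jag1, so a change of that size could not be told from none. Heyl, a target known to respond to Notch3, stood at -0.19, 0.042, 0.024 and 0.067, a difference of -0.12 ± 0.11 SE (95% interval -0.39 to 0.16). Its 3 probe sets ranged from -0.26 to 0.0067, all uncalled.

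In the order of their differences the members ran from Notch3 (-1.02) through Dll1, Heyl, Notch2, Notch1 and Hey1 (-0.039) to Notch4 (0.22), Hey2 (0.28), Hes1 (0.54) and Jag1 (0.94). The interval of Notch3 did not overlap that of any other member. From Dll1 to Hey2 each interval held 0, and the intervals of neighbours in that stretch overlapped. Differences between members were not tested. Hes1 and Jag1 had overlapping intervals. An exact permutation of 2 lines against 2 cannot give a two-sided p below 0.333, so no member can be judged by such a test.

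The rest of the pathway was read from a list of 59 further genes by role, of which 54 had a probe set of their own. Of these, 1 rose, 7 fell and 46 did not pass, beside 5.21% higher and 6.95% lower over all genes. Their median difference was -0.067, against -0.0027 over all genes. In 36 of the 54 the knockout lines lay on 1 side of both wild-type lines, beside the 58.2% of all genes without overlap given above. The 36 include the 8 called genes. For those 8 the separation comes from the same values as the call, so it adds no evidence to it.

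Rbpj, the DNA-binding partner of every Notch receptor, fell 1.71-fold. It stood at -0.43 and -0.33 in the knockout lines and 0.46 and 0.33 in the wild-type lines, with gaps of 0.10 and 0.13 within a genotype. The difference was -0.78 ± 0.094 SE (limma adjusted p = 0.0180), and all 3 of its probe sets were called, at -0.67, -0.72 and -0.93. With 1 line left out it lay between -0.84 and -0.71 and was not called (limma adjusted p = 0.0527 to 0.116). The other 9 measured genes of the nuclear complex were not called. Fhl1 came nearest (0.45 ± 0.13 SE, limma adjusted p = 0.0876), from probe sets at 0.95 and -0.052, neither called. Kat2b lay furthest below 0 among the uncalled genes (-0.28). Also uncalled were the coactivators Maml1 (-0.067) and Maml2 (0.037), the acetyltransferase Ep300 (0.20) and the corepressor Spen (0.27).

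Fbxw7, the ubiquitin ligase subunit that marks the cleaved receptor for degradation, rose 1.55-fold. Its values were 0.36 and 0.25 in the knockout against -0.38 and -0.26 in the wild type (0.63 ± 0.094 SE, limma adjusted p = 0.0244). The 2 probe sets gave 0.79 (called) and 0.47 (not called). Without the _s_at probe set the gene lost its call. Dtx3l, a Deltex-family ubiquitin ligase that is also interferon-inducible, fell 2.94-fold and was the largest difference of the list (-1.56 ± 0.24 SE, limma adjusted p = 0.0255). It stood at -1.07 and -0.53 in the knockout and 0.99 and 0.53 in the wild type, and its probe sets gave -1.57 and -1.55. The other Deltex genes Dtx1, Dtx2, Dtx3 and Dtx4 lay between -0.098 and 0.11 and were not called.

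Among genes that modify receptors or ligands, 2 of 9 fell. Pofut1, which adds the O-fucose that ligand binding needs, stood at -0.30 and -0.28 in the knockout and 0.15 and 0.28 in the wild type (-0.50 ± 0.088 SE, limma adjusted p = 0.0320), with 1 of 3 probe sets called on its own. Mib2, a Mind bomb ubiquitin ligase for ligands, stood at -0.28 and -0.22 against 0.24 and 0.22 (-0.48 ± 0.081 SE, limma adjusted p = 0.0289), from 1 probe set of the _s_at kind. Of the uncalled genes of this group, Neurl1a came nearest (-0.41 ± 0.093 SE, limma adjusted p = 0.0522), with 1 of 6 probe sets called lower. The Fringe genes, which extend the O-fucose sugar, were not called, at 0.10 (Lfng), -0.15 (Mfng) and -0.10 (Rfng). None of the 8 measured genes of receptor cleavage was called by limma (1 at an unadjusted p under 0.05). Adam17, a protease that sheds the receptor's outer part, came nearest (-0.43 ± 0.11 SE, limma adjusted p = 0.0728), and Adam10 stood at 0.0043.

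Of 6 genes of the Groucho/TLE family, Tle2 fell (-0.61 ± 0.11 SE, limma adjusted p = 0.0337) and 5 did not pass. Tle2 stood at -0.23 and -0.31 in the knockout and 0.47 and 0.23 in the wild type. Tle6 had a like difference with a wider error (-0.61 ± 0.15 SE, limma adjusted p = 0.0630), Tle5 lay above 0 (0.42 ± 0.10 SE, limma adjusted p = 0.0639), and Tle1, Tle3 and Tle4 lay between -0.14 and 0.17. Of 6 other targets and Hes relatives, 2 fell. Hes6, a Hes-like factor that opposes Hes1, stood at -0.36 and -0.32 against 0.32 and 0.48 (-0.74 ± 0.095 SE, limma adjusted p = 0.0188), with both probe sets called. Hes2 stood at -0.20 and -0.29 against 0.23 and 0.20 (-0.47 ± 0.084 SE, limma adjusted p = 0.0335). The classical targets Hes5 (0.0041) and Nrarp (0.16) were not called. Of 5 other ligands none was called by limma (1 at an unadjusted p under 0.05), with Dlk1, a non-canonical ligand, nearest (-0.48 ± 0.14 SE, limma adjusted p = 0.0948), from probe sets at -0.90 (called) and -0.060.

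**Figure D3:**
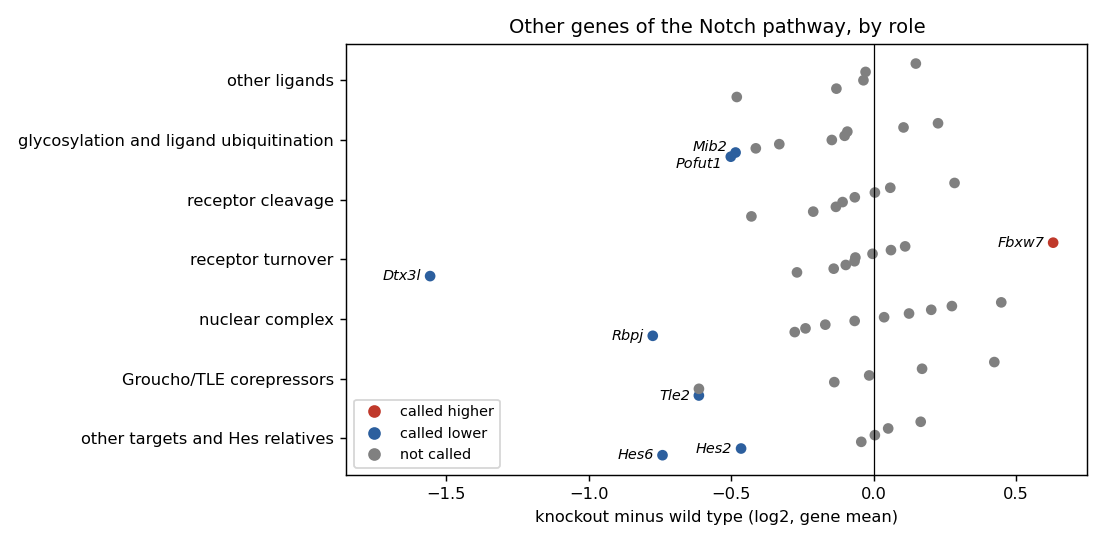
Knockout minus wild-type difference (x axis, log2, gene mean) of the 54 measured further genes of the pathway, 1 point each, grouped by role; vertical offsets within a role only separate the points, and called genes are named. Fbxw7 at 0.63 is the called gene on the right, and 7 called genes lie on the left, with Dtx3l at -1.56.

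Because Notch3 and Jag1 are known from mural cells, markers of pericytes and smooth muscle were set beside them. Of 11 such markers other than Notch3, 5 rose, 1 fell and 5 did not pass, with a median difference of 0.62 and line medians of 0.19, 0.29, -0.34 and -0.24 in lines 2, 4, 5 and 6. The contractile genes Acta2 (1.03 ± 0.15 SE, limma adjusted p = 0.0241), Myh11 (0.95 ± 0.089 SE) and Cnn1 (0.95 ± 0.19 SE), the adhesion molecule Mcam (1.44 ± 0.19 SE) and desmin, Des (0.62 ± 0.090 SE), rose. Pdgfrb, a growth factor receptor of pericytes and fibroblasts alike, fell (-0.52 ± 0.090 SE, limma adjusted p = 0.0318). The 5 that did not pass went both ways. Rgs5 stood at 1.17 ± 0.31 SE (limma adjusted p = 0.0720), Tagln at 0.38 and Kcnj8 at 0.30. Below 0 were Cspg4 at -0.38 and Abcc9 at -0.043. With 2 lines against 2, every gene that rose shares its lines with Jag1, and every gene that fell shares them with Notch3. Over all genes, 947 were called higher and 1265 lower. A shared direction with these markers therefore does not tie them to Notch3 or Jag1. The part of these markers in the Notch3 and Jag1 differences was not tested.

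The genes whose 4 values lay nearest to those of Notch3, by root mean square distance over the 4 lines, were Fmnl2 (0.035), P3h3 (0.043) and Vstm5 (0.044), and 81 genes lay within 0.1 of it. Nearest to Jag1 were Max (0.027), Bdnf (0.056) and Zfp697 (0.069), with 22 genes within 0.1. With 4 arrays such likeness is a description of these lines.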

How the data were processed

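Values were deposited by the authors on the log2 scale, made with Affymetrix Expression Console and RMA per the submitters' processing notes; versions are not stated there, and base 2 was taken from the method. Every probe set had a median of 0 over the 4 arrays (within 5e-07), a centring step the labels do not describe. With an even number of arrays it makes the middle pair of values equal in size and opposite in sign. The 430A 2.0 array is named in the series text, but all 45101 probe sets were annotated with the larger 430 2.0 platform table. Of these, 64 controls were left out, 34958 had 1 gene symbol, 932 several and 9211 none.

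Probe sets of 1 gene were averaged. Knockout minus wild type was fitted with limma 3.58.1 in R 4.3.3 (lmFit, eBayes, no covariates, with 2 residual and 3.04 prior degrees of freedom). The code was also run on simulated data drawn from the variance model of limma itself, without effects shared between genes. That run checks the code and not the calls made here. The number of arrays limits precision. The members and lists were chosen with earlier results of these data known. Named genes are all members, Phf12, called genes of the wider list, the smallest p per role, marker genes and the 3 nearest profiles of the largest called member in each direction; other uncalled genes and markers were named after their values were seen. Alternatives were other probe set summaries, normalisations, variance estimates and leaving out each line.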

Additional observations from a re-analysis of the deposited data

How the results depend on the processing

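The median of probe sets, quantile normalisation, array medians subtracted, array weights and robust eBayes kept the direction and call of all 10 members, and all counts stayed within 1.5 times. Without _s_at and _x_at probe sets, 0 further pathway genes were called higher instead of 1 (limma, 16 at an unadjusted p under 0.05 in either direction), and Notch3 moved to -0.51. Without moderation of the variance, 0 genes were called over the whole array (3574 at an unadjusted p under 0.05), hence 0 members, 0 member probe sets and 0 further genes, with Notch3 at -1.02 (adjusted p = 0.192) and Jag1 at 0.94 (adjusted p = 0.258).

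Leaving out 1 line, limma called between 0 and 321 genes instead of 2212 (3296 to 5418 at an unadjusted p under 0.05). The 321 were without knockout line 4, and 1 gene was called without wild-type line 5. Members called lower ranged from 0 to 1 and higher were 0; further genes called lower ranged from 0 to 1 and higher were 0; member probe sets were 0 in both directions. Notch3 ranged from -1.07 to -0.97 and Jag1 from 0.73 to 1.14. Signs turned for uncalled members: Notch1 (-0.16 to 0.043, turned without wild-type line 6), Dll1 (-0.44 to 0.094, without wild-type line 5), Hey1 (-0.12 to 0.043, without knockout line 4, at 0.011, and without wild-type line 5) and Hey2 (-0.12 to 0.68, without knockout line 2). All 8 called further genes kept their direction in each of these fits. These fits have 1 residual degree of freedom, and the lone line is assumed to vary like the others.

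A filter on dim probe sets was not run because the centred values hold no levels. No paired analysis was possible because no line number occurs in both genotypes.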
